A study of Homo sapiens with 8 samples.

Results

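Interferon-stimulated genes are genes that cells switch on when they sense type I interferon. A list of 55 of them was followed in NB4 cells, a human line of acute promyelocytic leukemia (APL) with the PML/RARα fusion. The members were taken by their gene symbols from the deposited counts, in which all 55 were found among 37526 gene names listed for every library. The series has 8 RNA-seq libraries in 4 groups of 2 replicates. The groups are NB4 cells stably transduced with the empty pLVX-shRNA2-puro vector (shNC), the same cells with an shRNA against KDM3B (shKDM3B), and each of these after all-trans retinoic acid (ATRA), named shNC_ATRA and shKDM3B_ATRA. All 4 groups were grown in RPMI medium with serum and carry a puromycin-resistance vector. The labels call the control an empty vector and the methods of the study a scrambled shRNA. ATRA was given at 1 µM according to the labels, for 24 or 48 hours, and the time is not tied to single samples. The methods of the study state the ATRA dose in mM instead. Which of the hairpins against KDM3B was used is not named. The methods describe selection with puromycin and no cloning step, so the selected cells are called cell pools here, although this is not stated. KDM3B is a histone H3 lysine 9 demethylase, and ATRA drives APL cells toward granulocytes, so the design asks how this interferon-linked gene program stands in cells with less KDM3B, before and after differentiation.

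Type I interferons bind the receptor chains IFNAR1 and IFNAR2, which activate the kinases JAK1 and TYK2. These phosphorylate STAT proteins such as STAT2, which join IRF9 in the complex ISGF3. ISGF3 binds the interferon-stimulated response element (ISRE), whereas STAT dimers bind the gamma-activated sequence (GAS). The genes they switch on include RNA sensors, enzymes that block translation or degrade RNA, the ubiquitin-like protein ISG15 with its ligases, and proteins that trap viruses at membranes. In APL cells, retinoic acid is known to induce several of these genes during differentiation, among them the transcription factor IRF1.

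The promoters of the members were searched for both elements, because the list is bound together by them. RefSeq promoters of GRCh38.p14, from 250 bases before to 50 bases after a transcription start, were matched for 43 of the 55 genes. The letters searched were GAAANNGAAA for the ISRE core and TTCNNNGAA for the GAS core, on both strands. The ISRE core was found in 29 of the 43 genes (67.4%), against 4.38% of 27305 genes with a promoter in the table. The GAS core was found in 13 of the 43 genes (30.2%), against 9.38% of all genes. A match of letters is a description of the sequence and not evidence of binding. The windows shown belong to 7 genes whose values are described further on. Each is written 5′ to 3′ on the strand of its gene, with the core in capitals.
ISG15, chr1:1013380-1013409, plus strand: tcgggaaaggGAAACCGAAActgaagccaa
IFI6, chr1:27672288-27672317, minus strand: ggagagagggGAAAATGAAActgcagagtg
OAS3, chr12:112938321-112938350, plus strand: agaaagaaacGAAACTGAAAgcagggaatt
DDX60, chr4:168318821-168318850, minus strand: gtgctgaaggGAAACTGAAAcctaagtgct
IFIT1, chr10:89392510-89392539, plus strand: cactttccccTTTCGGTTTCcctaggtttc
HERC5, chr4:88457035-88457064, plus strand: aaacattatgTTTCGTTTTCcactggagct
IRF1, chr5:132490879-132490907, minus strand: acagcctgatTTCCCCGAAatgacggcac

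The cores of ISG15, IFI6, OAS3 and DDX60 begin 107, 115, 143 and 88 bases before the start used by RefSeq. Those of IFIT1 and HERC5 lie on the opposite strand, so their letters are the reverse complement of the core, 103 and 74 bases before the start. IRF1 had a GAS core 124 bases before its start and no ISRE core in its window. HERC5 is shown because it was called lower with ATRA.

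The reads assigned to genes numbered from 9708739 to 33017787 in a library. KDM3B itself stood at 187 and 188 normalized CPM (counts scaled to library size) in shNC, 76.3 and 86.2 in shKDM3B, 196 and 121 in shNC_ATRA, and 52.5 and 57.4 in shKDM3B_ATRA, so the knockdown libraries were lower in both settings. Reads assigned to no gene made up between 8.49% and 9.62% of the reads in the 4 untreated libraries and in shNC_ATRA replicate 1. In shNC_ATRA replicate 2 and both shKDM3B_ATRA libraries they made up between 50.02% and 51.4%. The ATRA effect in shKDM3B cells and this split of the libraries therefore cannot be told apart. Summed promyelocyte markers lay between 4640 and 5780 CPM in shNC and between 8720 and 9950 in shKDM3B, most of it MPO. With ATRA the sum lay between 1350 and 1770 in shNC_ATRA and between 2870 and 3710 in shKDM3B_ATRA. The list moved in both directions with ATRA in shNC. MPO (730 and 616 CPM in shNC_ATRA) and CTSG were called lower, whereas SPI1 (495 and 304) and CEBPE (427 and 335) were called higher. ELANE, AZU1 and PRTN3 stayed under 1.5 CPM in every library. Nothing in the labels says that the replicates were separate cultures, so p-values measure the spread between these libraries, which may be technical. With 2 libraries against 2, an exact permutation test cannot give a two-sided p under 0.333.

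The levels of the members spanned a wide range, as the heat map of all members shows. Normalized CPM are counts scaled by library size and composition, and a mean of at least 10 CPM was reached by 20 members in shNC, 18 in shKDM3B, 29 in shNC_ATRA and 30 in shKDM3B_ATRA. Under 1 CPM were 19, 20, 9 and 11 members in the same order. The median member stood at 3.65 CPM in shNC, 1.86 in shKDM3B, 14.3 in shNC_ATRA and 11.5 in shKDM3B_ATRA. Per length of exons, the highest level in shNC was that of BST2, which tethers budding virions to the membrane, at 75.8 CPM per kb. It was followed by IFITM2, which blocks virus entry, at 54.6 CPM per kb and by the secreted glycoprotein LGALS3BP at 33.0 CPM per kb. PARP14 was listed at 0 in all 8 libraries.

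**Figure D1:**
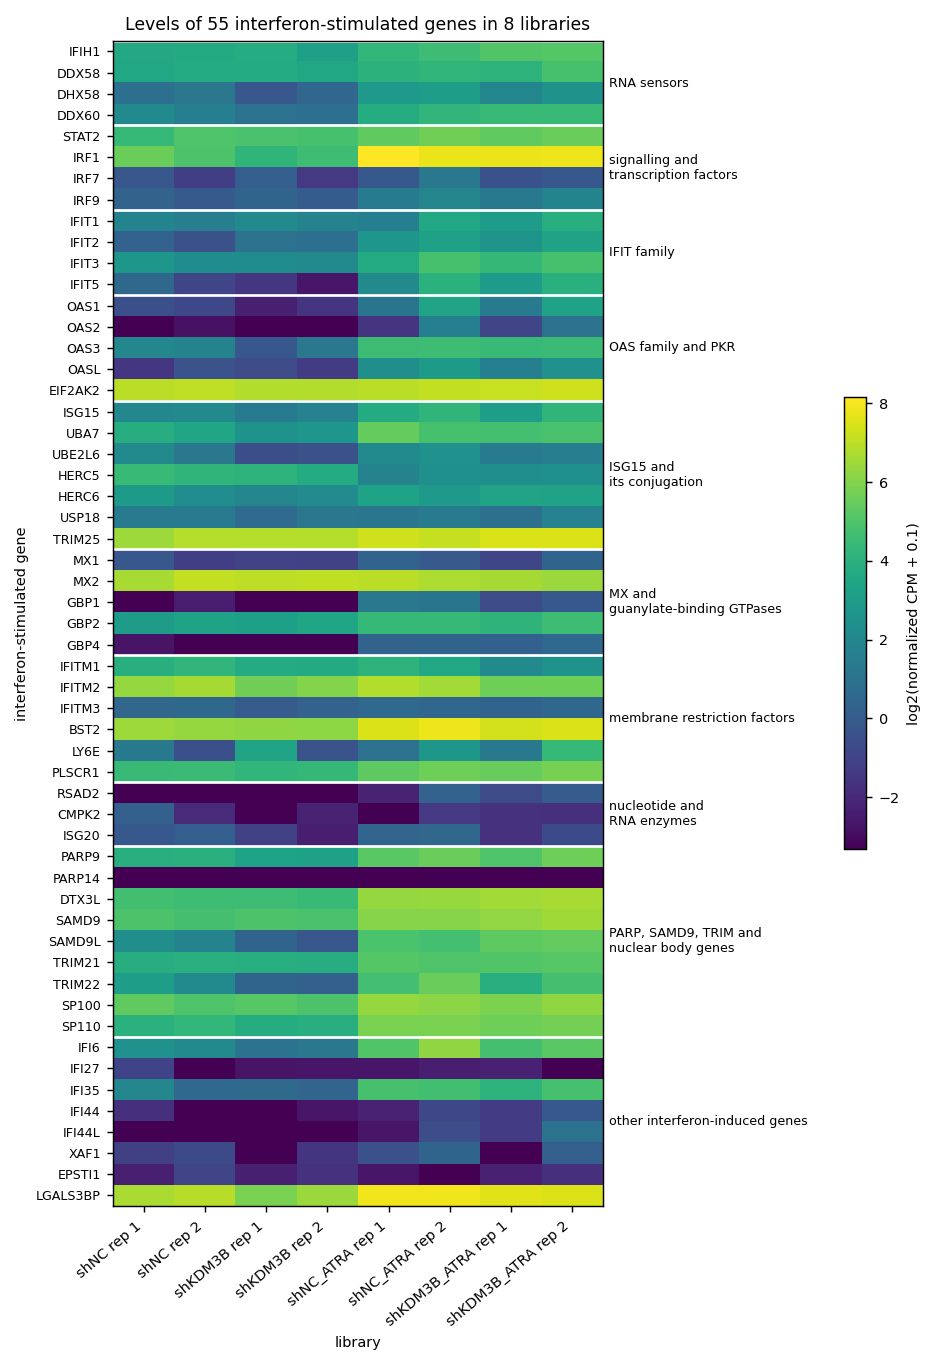
Heat map of the 55 members (rows, grouped by role) in the 8 libraries (columns), coloured by log2 of normalized CPM plus 0.1. Most rows are brighter in the 4 ATRA libraries than in the 4 untreated ones, while HERC5 is darker there and PARP14 is at 0 throughout.

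With ATRA, a large part of the list rose, in shNC and in shKDM3B cells alike. The thresholds of the study were used for calls, an unadjusted p under 0.05 with a change of at least 1.5-fold. In shNC, 31 of 47 tested members were called higher and 1 lower, whereas 15.0% of all 12429 tested genes were called higher and 10.8% lower. In shKDM3B, 34 of 43 tested members were called higher and 2 lower, whereas 24.0% of all 12756 tested genes were called higher and 18.3% lower. The median log2 fold change of the tested members was 1.36 in shNC and 1.63 in shKDM3B, against 0.02 and 0.04 over all tested genes. In bulk RNA, more cells that express a gene and more of its RNA per cell cannot be told apart.

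At an edgeR adjusted p under 0.05 (quasi-likelihood test, Benjamini-Hochberg adjustment over all tested genes), 27 members were higher and 1 lower in shNC, where 7.84% of all genes were higher and 5.06% lower. In shKDM3B, 34 were higher and 2 lower at that threshold, beside 23.0% and 17.3% of all genes. Some members passed the low-count filter only because they are high with ATRA, so the counts are not shares of the whole list. The 8 members not tested in shNC were OAS2, RSAD2, CMPK2, PARP14, IFI27, IFI44, IFI44L and EPSTI1. In shKDM3B, MX1, GBP1, ISG20 and XAF1 were not tested either. The comparisons in shNC and in shKDM3B share no library. Of the 31 members higher in shNC, 30 (96.8%) were also higher in shKDM3B, and these made up 88.2% of the 34 there. Over all tested genes, 77.2% of those called higher in shNC were also called in shKDM3B, which was 47.1% of those there. GBP1, called in shNC alone, was not tested in shKDM3B. Against shNC_ATRA replicate 1 alone, which has the same low share of unassigned reads as the untreated libraries, all 31 members were called higher again, beside 12.9% of all genes. That fit has 1 library with ATRA, which is assumed to vary like the 2 shNC libraries. Without shNC replicate 1, 26 members were called higher, beside 6.79% of all genes, and without replicate 2 the count was 25, beside 6.94%. In both of these fits 0 members had an edgeR adjusted p under 0.05, and 0.0% of all genes had one. The calls lost without shNC replicate 1 were IFIH1, IRF9, OAS1, STAT2 and TRIM25, and those lost without replicate 2 were IFIH1, IFIT3, IFIT5, IRF9, OAS1 and TRIM25. Without shNC_ATRA replicate 1, TRIM25 was not called and GBP4 was under the low-count filter. In shKDM3B, GBP4 was under this filter without either shKDM3B_ATRA library, and DDX58 and STAT2 were not called without replicate 2.

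**Figure D2:**
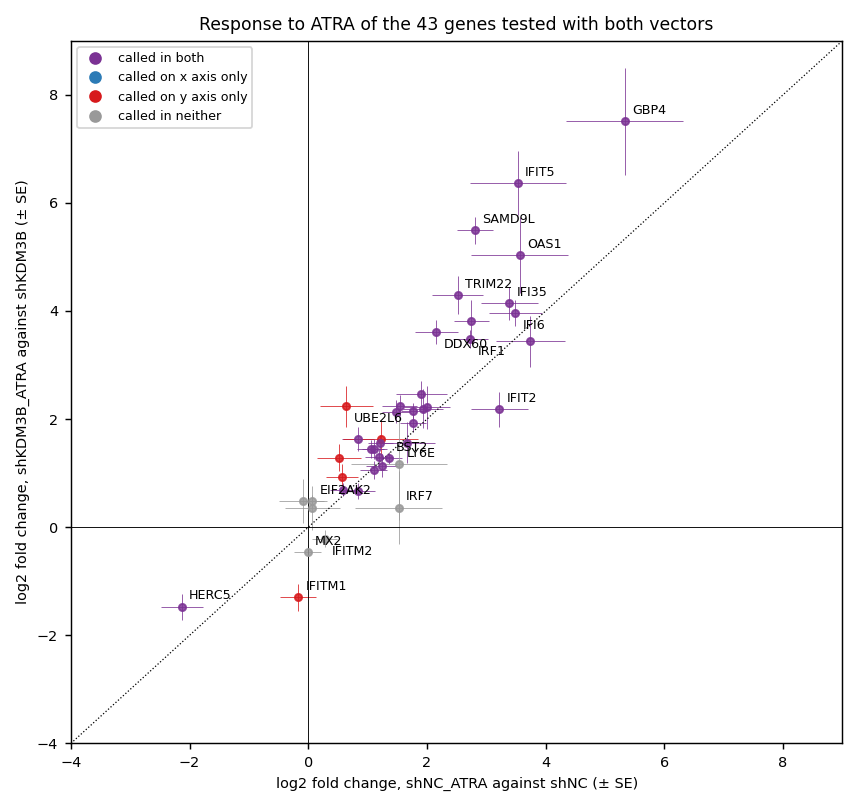
Log2 fold change with ATRA in shNC (x axis) against that in shKDM3B (y axis), each with its standard error, for the 43 members tested in both; colours show in which comparison a member was called and the dotted line marks equal responses. Most points lie above 0 on both axes, with HERC5 alone called lower in both and IFITM1 called lower in shKDM3B.

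Among the RNA sensors, which recognise viral RNA in the cytoplasm, 3 of 4 were called higher with ATRA in shNC and all 4 in shKDM3B. IFIH1 (MDA5), the sensor of long double-stranded RNA, stood at 12.1 and 12.6 CPM in shNC, 13.6 and 8.99 in shKDM3B, 19.2 and 24.2 in shNC_ATRA, and 32.4 and 34.4 in shKDM3B_ATRA. Its ATRA libraries lay above the untreated ones in both cell pools, with log2 fold changes of 0.84 ± 0.27 (SE) in shNC and 1.63 ± 0.22 in shKDM3B. DDX58 (RIG-I), the sensor of RNA with a free triphosphate, stood at 11.2 and 13.0 CPM in shNC, 13.0 and 11.8 in shKDM3B, 16.4 and 18.8 in shNC_ATRA, and 17.2 and 28.1 in shKDM3B_ATRA. It rose in shKDM3B (0.92 ± 0.24) and was not called in shNC (0.57 ± 0.27, edgeR adjusted p = 0.228). In GENCODE v44, 43.2% of the DDX58 exon sequence is shared with another gene on the same strand, so its level is uncertain. DDX60, a helicase that promotes signalling by RIG-I, went from 4.32 and 2.98 CPM in shNC to 13.5 and 18.4 in shNC_ATRA, and from 1.85 and 1.75 in shKDM3B to 21.2 in each shKDM3B_ATRA library. The groups did not overlap, and the log2 fold changes were 2.16 ± 0.37 and 3.61 ± 0.23.

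In the group of signalling and transcription factors, IRF1 had the highest levels with ATRA. It stood at 47.6 and 30.3 CPM in shNC, 17.9 and 23.8 in shKDM3B, 283 and 223 in shNC_ATRA, and 223 and 228 in shKDM3B_ATRA. Every ATRA library lay above every untreated one, and the fold change was 6.65 in shNC (log2 2.73 ± 0.29, edgeR adjusted p = 0.0016) and 11.1 in shKDM3B (log2 3.48 ± 0.16, edgeR adjusted p = 3.29e-07). Of the IRF1 exon sequence, 22.9% is overlapped on the opposite strand, by IRF1-AS1 among others, and whether strand was used in counting is not given in the sources used here. Other members share this limit. Among those called higher with ATRA, 19 of 31 in shNC and 22 of 34 in shKDM3B had no exon overlap on the opposite strand. STAT2, the ISGF3 subunit that carries the activation domain, went from 20.3 and 31.2 CPM in shNC to 40.1 and 49.8 in shNC_ATRA, and from 28.7 and 27.9 in shKDM3B to 40.5 and 46.2 in shKDM3B_ATRA. The log2 changes were 0.84 ± 0.28 and 0.67 ± 0.15, both called. IRF9, the DNA-binding subunit of ISGF3, was low, at 1.15 and 0.839 CPM in shNC and 1.18 and 0.920 in shKDM3B. With ATRA it stood at 2.64 and 3.60 in shNC_ATRA and at 2.42 and 3.52 in shKDM3B_ATRA, called higher in both. IRF7, the amplifier of interferon production, stayed under 2.5 CPM in all libraries, with 0.753 and 0.336 in shNC, 0.976 and 0.276 in shKDM3B, 0.797 and 2.31 in shNC_ATRA, and 0.632 and 0.804 in shKDM3B_ATRA. It was called in neither cell pool.

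The IFIT proteins bind viral RNA and block its translation. All 4 IFIT genes were called higher in shKDM3B and 3 of 4 in shNC. IFIT5 stood at 1.36 and 0.420 CPM in shNC, 0.257 and 0.0614 in shKDM3B, 4.23 and 15.8 in shNC_ATRA, and 7.69 and 15.4 in shKDM3B_ATRA. IFIT3, which stabilises IFIT1, stood at 6.68 and 4.66 CPM in shNC, 4.62 and 4.23 in shKDM3B, 13.4 and 27.9 in shNC_ATRA, and 19.6 and 27.6 in shKDM3B_ATRA. The ATRA libraries of both genes were above all untreated ones, and the log2 changes of IFIT3 were 1.90 ± 0.43 in shNC and 2.47 ± 0.24 in shKDM3B. In shNC the change of IFIT3 was 1.25 without shNC_ATRA replicate 2, and it was not called without shNC replicate 2. IFIT2, a member that promotes apoptosis, went from 1.1 and 0.629 CPM in shNC to 6.37 and 9.41 in shNC_ATRA and from 1.85 and 1.75 in shKDM3B to 6.11 and 9.65 in shKDM3B_ATRA. IFIT1, which recognises RNA caps that lack methylation, stood at 3.56 and 2.90 CPM in shNC, 4.26 and 3.37 in shKDM3B, 3.0 and 11.7 in shNC_ATRA, and 7.79 and 15.0 in shKDM3B_ATRA. In shNC_ATRA the 2 replicates disagreed, replicate 1 lying within the range of shNC, and IFIT1 was not called there (log2 1.22 ± 0.63). In shKDM3B both ATRA libraries were higher and it was called (1.64 ± 0.34). The 4 genes lie next to each other on chromosome 10, with 8.1 to 18.0 kb between neighbours.

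The OAS enzymes make oligoadenylates that activate RNase L, and PKR (EIF2AK2) halts translation on double-stranded RNA. OAS1 stood at 0.602 and 0.462 CPM in shNC, 0.103 and 0.245 in shKDM3B, 2.08 and 10.3 in shNC_ATRA, and 2.63 and 9.65 in shKDM3B_ATRA. OAS3 stood at 3.82 and 3.36 CPM in shNC, 0.771 and 2.27 in shKDM3B, 22.9 and 24.2 in shNC_ATRA, and 21.1 and 22.4 in shKDM3B_ATRA. The pair differed in how well replicates matched: the ATRA libraries of OAS3 lay within 21.1 and 24.2 CPM, whereas replicate 2 of OAS1 was the higher one in both ATRA groups. OASL, an OAS-like protein without enzyme activity, went from 0.251 and 0.671 CPM in shNC to 4.96 and 7.47 in shNC_ATRA, and from 0.514 and 0.307 in shKDM3B to 2.95 and 5.43 in shKDM3B_ATRA. OAS2 had 0 and 1 counts in shNC and none in shKDM3B, but 4 and 32 counts in shNC_ATRA and 4 and 19 in shKDM3B_ATRA. Against a floor of 3 counts per library, OAS2 was at least 11.6-fold higher with ATRA in shNC and at least 9.47-fold higher in shKDM3B. Both limits rested on replicate 2 of the ATRA groups, without which OAS2 was at least 1.77-fold and at least 3.42-fold higher. EIF2AK2 stood at 123 and 134 CPM in shNC, 112 and 114 in shKDM3B, 126 and 137 in shNC_ATRA, and 145 and 158 in shKDM3B_ATRA. Its fold change stayed under 1.5, so it was called in neither comparison, the log2 change being 0.07 ± 0.20 in shNC and 0.48 ± 0.12 in shKDM3B.

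ISG15 is attached to proteins by UBA7, UBE2L6 and HERC5 and removed by USP18. Of the 7 genes of this group, 3 were called higher and 1 lower in shNC, and 5 higher and 1 lower in shKDM3B. ISG15 stood at 4.02 and 4.45 CPM in shNC, 2.67 and 3.31 in shKDM3B, 13.4 and 18.3 in shNC_ATRA, and 8.64 and 17.9 in shKDM3B_ATRA, with log2 changes of 1.93 ± 0.34 and 2.19 ± 0.36. The change of ISG15 in shKDM3B was 1.57 without shKDM3B_ATRA replicate 2. UBA7, the activating enzyme, rose as well, by 1.54 ± 0.29 and 2.25 ± 0.19 on the log2 scale. HERC5, the main ISG15 ligase, went the other way, from 20.9 and 18.0 CPM in shNC to 3.37 and 5.35 in shNC_ATRA, and from 16.9 and 13.0 in shKDM3B to 5.16 and 5.23 in shKDM3B_ATRA. It fell by 2.13 ± 0.35 on the log2 scale in shNC (edgeR adjusted p = 0.00876) and by 1.47 ± 0.24 in shKDM3B (edgeR adjusted p = 0.000835), with 3 ISRE cores in its promoter window. Its neighbour HERC6, 14.0 kb away, was called higher in shKDM3B. USP18, the ISG15 protease that also damps receptor signalling, stood at 2.61 and 2.52 CPM in shNC, 1.49 and 2.24 in shKDM3B, 2.15 and 2.58 in shNC_ATRA, and 1.79 and 3.32 in shKDM3B_ATRA. Its groups overlapped and it was not called.

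The MX proteins are GTPases that block incoming viruses. MX1, a common marker of interferon signalling, stayed low, at 0.753 and 0.336 CPM in shNC, 0.411 and 0.368 in shKDM3B, 1.16 and 0.830 in shNC_ATRA, and 0.421 and 1.21 in shKDM3B_ATRA. It was not called in shNC and not tested in shKDM3B. MX2, its paralog 10.6 kb away, was expressed without ATRA, at 101 and 136 CPM in shNC and 128 and 133 in shKDM3B, and stood at 125 and 105 in shNC_ATRA and 97.6 and 85.2 in shKDM3B_ATRA. It was not called in either comparison. In shKDM3B the groups of MX2 did not overlap, but its fall stayed under 1.5-fold (log2 -0.46 ± 0.13, edgeR adjusted p = 0.0143). The guanylate-binding proteins, which attack membranes around pathogens, were near 0 without ATRA apart from GBP2. GBP1 had 0 and 2 counts in shNC, none in shKDM3B, 38 and 23 in shNC_ATRA, and 5 and 8 in shKDM3B_ATRA, at least 16.1-fold and at least 5.40-fold higher with ATRA. GBP4 had 1 and 0 counts in shNC, none in shKDM3B, 19 and 13 in shNC_ATRA, and 10 and 14 in shKDM3B_ATRA, at least 8.55-fold and at least 9.99-fold higher.

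Among the 6 membrane restriction factors, BST2 and PLSCR1 were called higher in both cell pools. BST2 stood at 87.5 and 79.4 CPM in shNC, 74.9 and 74.2 in shKDM3B, 185 and 234 in shNC_ATRA, and 166 and 183 in shKDM3B_ATRA, with log2 changes of 1.36 ± 0.22 and 1.28 ± 0.12. IFITM1, which blocks virus entry at the cell surface, stood at 14.5 and 18.4 CPM in shNC, 13.0 and 12.6 in shKDM3B, 16.8 and 11.7 in shNC_ATRA, and 4.32 and 5.73 in shKDM3B_ATRA. It overlapped between shNC and shNC_ATRA and fell by 1.30 ± 0.25 on the log2 scale in shKDM3B (edgeR adjusted p = 0.002). LY6E varied widely within groups, from 0.587 to 20.4 CPM over the 8 libraries, and was not called. The 3 IFITM genes are close paralogs side by side on chromosome 11, so reads that match several of them may have been lost or shared.

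The genes of the PARP, SAMD9, TRIM and nuclear body group were called higher without exception among the 8 of 9 that were tested, in both cell pools. Their log2 changes lay between 1.1 and 2.81 in shNC and between 1.06 and 5.49 in shKDM3B. SAMD9L, which restrains proliferation and virus translation, stood at 4.92 and 3.36 CPM in shNC, 1.18 and 0.767 in shKDM3B, 30.1 and 26.6 in shNC_ATRA, and 39.7 and 42.2 in shKDM3B_ATRA. TRIM22, an antiviral ubiquitin ligase, stood at 8.53 and 4.45 CPM in shNC, 1.18 and 1.04 in shKDM3B, 26.1 and 46.6 in shNC_ATRA, and 15.0 and 26.8 in shKDM3B_ATRA. Both genes had their lowest values in shKDM3B, where the groups did not overlap with shNC. Of the other interferon-induced genes, IFI6, a mitochondrial and endoplasmic reticulum protein that counters apoptosis, went from 5.52 and 4.45 CPM in shNC to 33.0 and 76.4 in shNC_ATRA and from 1.95 and 2.24 in shKDM3B to 27.2 and 36.5 in shKDM3B_ATRA. LGALS3BP and IFI35 were called higher in both as well. RSAD2 (viperin), which makes a chain-terminating nucleotide, had 0 counts in all 4 untreated libraries, 2 and 12 in shNC_ATRA and 5 and 9 in shKDM3B_ATRA, at least 4.45-fold and at least 5.81-fold higher. Without shNC_ATRA replicate 2, RSAD2 was under the floor in shNC_ATRA and no fold can be given. In shKDM3B it was at least 4.28-fold higher without replicate 2. IFI44L had 0 counts without ATRA, 1 and 6 in shNC_ATRA and 3 and 19 in shKDM3B_ATRA.

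**Figure D3:**
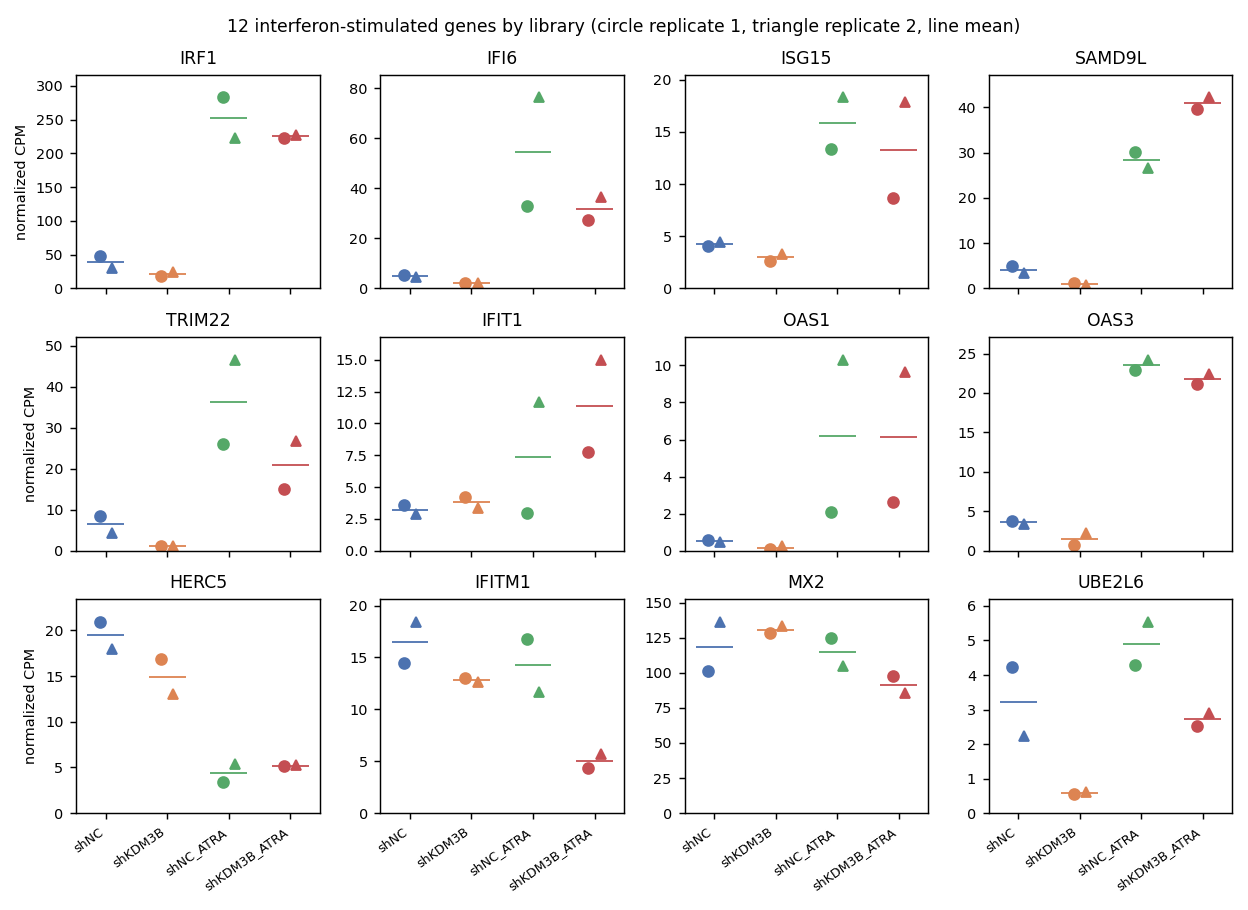
Normalized CPM (y axis, from 0) of 12 members in the 4 groups (x axis), with a circle for replicate 1, a triangle for replicate 2 and a line at their mean. IRF1 and OAS3 separate cleanly by ATRA, IFIT1 and OAS1 are higher in replicate 2 of both ATRA groups, and HERC5 is lower with ATRA.

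Members rose with and without an ISRE core in the promoter window. Of the 29 genes with a core, 23 were tested in shNC, of which 16 were called higher and 1 lower. Of the 14 matched genes without one, 13 were tested and 9 were called higher. In shKDM3B the counts were 16 higher and 2 lower of 20 tested with a core, and 12 higher of 12 tested without one. These counts are a description, and the difference between them was not tested.

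The other genes of the pathway were a list of 43, none of them a member. The interferons themselves were close to absent. IFNB1, the gene of interferon beta, had 1 count in shNC_ATRA replicate 2 and 0 in every other library, and IFNA1 had between 0 and 5 counts. The other 6 ligand genes had at most 1 count in any library, and none of the 8 was tested. With ATRA, 12 of 30 tested pathway genes were called higher and 1 lower in shNC, beside 15.0% and 10.8% of all tested genes. In shKDM3B, 15 of 30 were called higher and 3 lower, beside 24.0% and 18.3%.

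Of the receptor chains, IFNAR1 stood at 51.8 and 52.9 CPM in shNC, 64.2 and 56.5 in shKDM3B, 64.5 and 75.8 in shNC_ATRA, and 83.9 and 82.5 in shKDM3B_ATRA, and was not called. Its rise stayed under 1.5-fold in both cell pools, in shKDM3B with log2 0.52 ± 0.13 (edgeR adjusted p = 0.01). IFNAR2 stood at 23.4 and 22.9 CPM in shNC, 27.7 and 24.0 in shKDM3B, 41.4 and 38.0 in shNC_ATRA, and 27.3 and 34.2 in shKDM3B_ATRA, and was called higher in shNC alone (log2 0.81 ± 0.21, against 0.30 ± 0.18 in shKDM3B). The difference of these responses of IFNAR2 was -0.53 ± 0.24 (edgeR adjusted p = 1.0). The kinase JAK1 stood between 80.3 and 122 CPM in all libraries and was not called. TYK2 stood at 256 and 301 CPM in shNC, 218 and 273 in shKDM3B, 531 and 305 in shNC_ATRA, and 288 and 376 in shKDM3B_ATRA, and was not called either. In shKDM3B its rise stayed under 1.5-fold (log2 0.49 ± 0.16, edgeR adjusted p = 0.0335).

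SOCS1, the feedback inhibitor of the JAK kinases, was called higher in both from low levels, at 1.36 and 1.01 CPM in shNC, 0.565 and 0.583 in shKDM3B, 3.0 and 2.49 in shNC_ATRA, and 2.63 and 2.21 in shKDM3B_ATRA. TMEM173 (STING1), the adaptor of cytosolic DNA sensing, was singled out after its values were seen. It went from 76.3 and 72.4 CPM in shNC to 761 and 852 in shNC_ATRA, and from 52.9 and 43.2 in shKDM3B to 730 and 683 in shKDM3B_ATRA. Its log2 changes, 3.47 ± 0.22 and 3.93 ± 0.15, were the largest of the pathway list in each cell pool.

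Without ATRA, the members leaned lower in shKDM3B cells than in shNC cells. Of 42 tested members, 12 were called lower and 1 higher, whereas 3.53% of all 13855 tested genes were called lower and 3.48% higher. The estimates were negative for 31 of the 42, and their median log2 fold change was -0.36, against 0.00 over all tested genes. No member passed an edgeR adjusted p under 0.05, while 13 had an unadjusted p under 0.05. Of all genes, 0.0217% were lower at that adjusted threshold. DESeq2 called 11 of the 12 lower, beside 2.79% of all genes, and did not call ISG20 lower or IFIT2 higher. At its adjusted p under 0.05, DESeq2 had 5 members lower, beside 0.881% of all genes. When single libraries were left out, between 10 and 13 members were called lower, beside 3.15% to 4.82% of all genes, and the 12 stayed negative each time. Markers moved with this comparison as well. The promyelocyte marker MPO was called higher in shKDM3B (log2 0.89 ± 0.15), and the myeloid integrin ITGAM (-0.90 ± 0.25) and the granule protein NKG7 (-0.89 ± 0.22) were called lower. The summed NK cell markers, of which NKG7 is one, lay between 43.2 and 53.4 CPM in shNC and between 30.6 and 35.3 in shKDM3B. Most of this sum was NKG7, with a mean of 39.8 CPM in shNC and 21.4 in shKDM3B. NCAM1 of the same list went the other way, from a mean of 8.23 to 11.3, and was not called. The part of these markers in the lower members was not tested.

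The members called lower came from 8 of the 10 role groups. They were DDX60, IRF1, OAS3, UBA7, UBE2L6, IFITM2, ISG20, PARP9, SAMD9L, TRIM22, IFI6 and LGALS3BP. TRIM22 had the largest fall, 8.53 and 4.45 CPM in shNC against 1.18 and 1.04 in shKDM3B, a log2 change of -2.54 ± 0.40 (edgeR adjusted p = 0.105). UBE2L6, the conjugating enzyme of ISG15, stood at 4.22 and 2.22 CPM in shNC and 0.565 and 0.614 in shKDM3B, a log2 change of -2.43 ± 0.45. SAMD9L changed by -2.11 ± 0.40, 4.92 and 3.36 CPM against 1.18 and 0.767. In these 3 genes both shKDM3B libraries were under both shNC libraries by a wide margin. ISG20, an exonuclease that degrades RNA, had 16 and 23 counts in shNC and 7 and 3 in shKDM3B. IFI6 stood at 5.52 and 4.45 CPM in shNC and 1.95 and 2.24 in shKDM3B, a log2 change of -1.24 ± 0.31.

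IRF1 was also lower, at 17.9 and 23.8 CPM against 47.6 and 30.3 in shNC, a log2 change of -0.90 ± 0.26. OAS3 stood at 0.771 and 2.27 CPM in shKDM3B, so its 2 replicates differed by more than the nearer one did from shNC. UBA7, at 14.0 and 10.9 CPM in shNC against 5.60 and 6.32 in shKDM3B, changed by -1.05 ± 0.25. LGALS3BP and IFITM2, which were expressed at higher levels, changed by -0.65 ± 0.21 and -0.59 ± 0.18. Of the 12 calls, 7 were lost when 1 library was left out. Those of IRF1 and DDX60 were lost without shNC replicate 1, and those of IFITM2, ISG20 and LGALS3BP without shNC replicate 2. Without shKDM3B replicate 1, IFITM2, LGALS3BP and OAS3 were no longer called, and without replicate 2 DDX60, ISG20 and PARP9. Several members often used as markers of interferon signalling were not called: ISG15 (-0.49 ± 0.30), IFIT3 (-0.36 ± 0.29) and IFIT1 (0.24 ± 0.31). IFIT2 was the one member called higher, at 1.85 and 1.75 CPM against 1.1 and 0.629 in shNC, a log2 change of 1.06 ± 0.43. IFIT2 was not called without shNC replicate 2 or without either shKDM3B replicate. Of the pathway list, 3 of 29 tested genes were called lower (IRF8, TMEM173 and IFI16) and 1 higher (STAT3), beside the 3.53% and 3.48% of all genes.

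**Figure D4:**
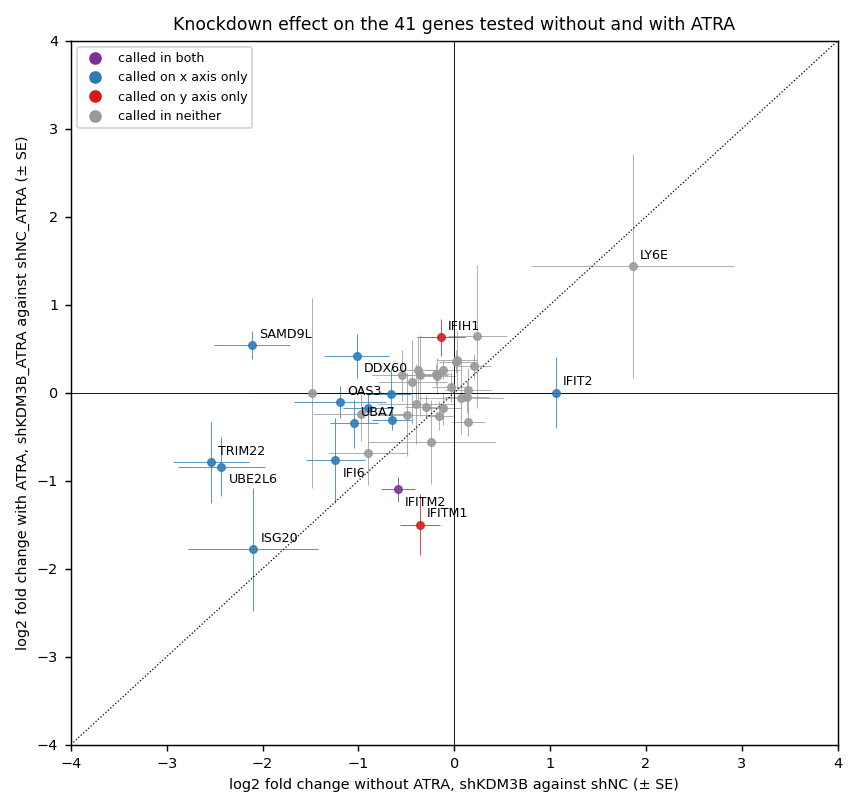
Log2 fold change of shKDM3B against shNC without ATRA (x axis) and with ATRA (y axis), each with its standard error, for the 41 members tested in both; colours show in which comparison a member was called and the dotted line marks equal effects. Of the 12 members called lower without ATRA, 7 lie between -0.35 and 0.54 on the y axis, and IFITM2 alone was called in both.

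With ATRA, few members differed between shKDM3B_ATRA and shNC_ATRA. Of 47 tested members, 3 were called lower and 1 higher, whereas 4.37% of all 14281 tested genes were called lower and 2.42% higher. The median log2 fold change was -0.06, against 0.03 over all tested genes. None passed an edgeR adjusted p under 0.05, 5 had an unadjusted p under 0.05, and DESeq2 gave 1 lower member at its adjusted p under 0.05, beside 1.6% of all genes. IFITM2 stood at 113 and 94.9 CPM in shNC_ATRA and 48.3 and 48.7 in shKDM3B_ATRA, a log2 change of -1.1 ± 0.14, and had also been lower without ATRA (79.9 and 95.6 against 50.8 and 65.6). IFITM1 changed by -1.50 ± 0.35 and GBP1 by -1.72 ± 0.49, from 38 and 23 counts to 5 and 8. IFIH1 was called higher (0.63 ± 0.21). GBP1 and IFITM1 were not called without either shKDM3B_ATRA library, and DESeq2 did not call GBP1. IFIH1 was not called without shNC_ATRA replicate 1, without either shKDM3B_ATRA library, with no low-count filter or with the likelihood ratio test. Markers moved with this comparison too, and their part was not tested. MPO was called 3.99-fold higher in shKDM3B_ATRA, while ITGAM, TGM2, CYP26A1, CEBPB, NKG7 and CD79A were called lower. The summed NK cell markers lay between 35.2 and 49.7 CPM in shNC_ATRA and between 16.9 and 25.8 in shKDM3B_ATRA. Most of it was again NKG7, with means of 41.1 and 18.8 CPM, whereas NCAM1 had means of 0.92 and 2.0. The lower members without and with ATRA had IFITM2 in common, which was 8.33% of the 12 and 33.3% of the 3. Over all tested genes, the lower calls in common were 25.8% of those without ATRA and 20.2% of those with ATRA. GBP1 was not tested without ATRA and could not be in common.

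This comparison depended on which shNC_ATRA library served as control, and in each of these fits that library alone is assumed to vary like the 2 shKDM3B_ATRA libraries. Against replicate 2 alone, which shares the high percentage of unassigned reads with both shKDM3B_ATRA libraries, 11 members were called lower and 2 higher, beside 8.19% and 8.78% of all genes. The 11 included IFITM1, IFITM2 and GBP1, and further TRIM22, IFI6, UBE2L6, OAS1, OAS2, OASL, DHX58 and IRF7. Against replicate 1 alone, 6 were called lower and 9 higher, beside 13.3% and 23.2% of all genes. Of the 47 members in both, 12 had estimates of opposite sign, 19 were negative in both and 13 positive in both. OAS1 was at 1.56 against replicate 1 and -0.73 against replicate 2 on the log2 scale, and IFIT1 at 1.92 and -0.03. The called members IFITM1, IFITM2 and GBP1 stayed at or under -0.96 against either. ISG20, also called lower without ATRA, did so too, at -1.74 and -1.8. It had 20 and 14 counts in shNC_ATRA and 2 and 5 in shKDM3B_ATRA, and was not called with ATRA in the reported fit.

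**Figure D5:**
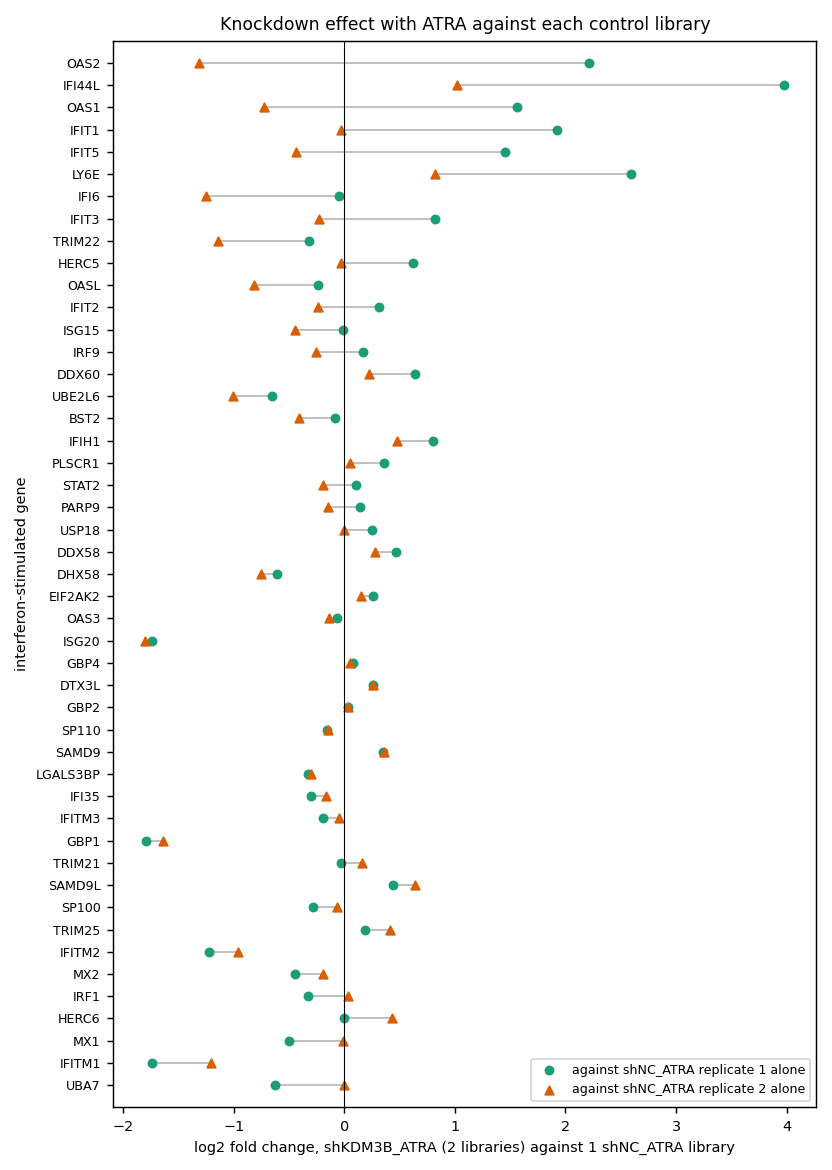
Log2 fold change (x axis) of the 2 shKDM3B_ATRA libraries against shNC_ATRA replicate 1 alone (circles) and against replicate 2 alone (triangles) for 47 members (rows). Rows are ordered by the estimate against replicate 1 minus that against replicate 2. OAS2, IFI44L, OAS1 and IFIT1 lie far apart, whereas IFITM2, GBP1 and SAMD9L keep their side of 0.

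The rise with ATRA was compared between the cell pools by an interaction over all 8 libraries. The interaction was positive for 37 of 49 tested members, a larger log2 response in shKDM3B, and negative for 12, with a median of 0.37 against -0.02 over all genes. An unadjusted p under 0.05 was reached by 5 members, whereas 4.49% of all 13528 tested genes reached it. Of the 5, 4 responded more in shKDM3B, beside 1.42% of all genes, and 1 less, beside 3.07%. None passed an edgeR adjusted p under 0.05, and DESeq2 and the likelihood ratio test each gave 1, SAMD9L, beside 0.177% and 0.14% of all genes. Among the 5, SAMD9L had the largest difference, 2.64 ± 0.39 (edgeR adjusted p = 0.962), its response being 7.01-fold in shNC and 44.9-fold in shKDM3B. Both shKDM3B_ATRA libraries ended above the shNC_ATRA ones, from a start under shNC. TRIM22 (1.75 ± 0.64), UBE2L6 (1.58 ± 0.58) and DDX60 (1.43 ± 0.39) also responded more in shKDM3B, and each of them started lower there. IFIT5 had a higher but less certain estimate than SAMD9L, 2.76 ± 1.30, and was not among the 5. IFITM1 (-1.14 ± 0.39) fell in shKDM3B and overlapped between groups in shNC. SAMD9L and DDX60 kept an unadjusted p under 0.05 with each library left out.

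Values of other lists moved with the groups as well. The summed ATRA response markers of APL cells, such as ITGAM and TGM2, lay between 182 and 232 CPM without ATRA, between 6140 and 7000 in shNC_ATRA and between 2980 and 3460 in shKDM3B_ATRA. Most of the sum with ATRA was TGM2, at 5840 and 5140 CPM in shNC_ATRA and 2270 and 2540 in shKDM3B_ATRA. CD38 of the same list was not lower in shKDM3B_ATRA, with a mean of 491 CPM against 460 in shNC_ATRA. Markers of plasmacytoid dendritic cells, the main interferon producers of blood, summed to at most 0.462 CPM in any library, with LILRA4 and GZMB at 0. Summed B cell markers lay between 6.32 and 12.5 CPM without ATRA, between 22.2 and 25.8 in shNC_ATRA and between 13.9 and 16.8 in shKDM3B_ATRA. The erythroid markers HBB, HBA1 and HBA2 and the B cell markers MS4A1 and PAX5 were at 0 in all libraries. Summed T cell markers lay between 10.3 and 20.3 CPM without ATRA, nearly all of it TRAC, and at most 1.84 with ATRA, with CD8A at 0. The part of the split in unassigned reads, of the time of treatment, of the degree of differentiation and of these markers in these differences was not tested.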

How the data were processed

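RNA-seq was done on 8 libraries of NB4 cells. The deposited files hold whole-number read counts per gene made by the authors, without normalization. The submitters' processing notes name HISAT2, SAMtools, Picard, HTSeq and DESeq2 with hg38, and versions and the strand setting are not given in the sources used here. The 5 HTSeq summary lines were kept out of library sizes. Untreated libraries list 56470 names and treated ones 56609, and comparisons used the names listed for all their libraries.

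Pairs of groups were compared with edgeR 4.0.16 (filterByExpr, TMM scaling, quasi-likelihood F test) in R 4.3.3, with Benjamini-Hochberg adjustment over all tested genes, and a call needed an unadjusted p under 0.05 and a fold change of at least 1.5. The standard error of a log2 change was its size over the square root of F. The difference in response was an interaction over all 8 libraries. DESeq2 1.42.0, other scalings, filters and left-out libraries were alternatives. The fits were also run on simulated data, with results not reported here. Folds against groups at 3 or fewer counts per library are bounds against 3 counts per library, which cover counting error only. CPM are TMM-scaled over all 8 libraries, and CPM per kb use GENCODE v44 exon lengths.

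Members and lists were chosen with earlier results of these data known. Named with values were the 5 called members with the largest rise and fall in each comparison, 15 chosen members and 7 chosen pathway genes, 1 of which is not reported here, and KDM3B. Other members given with values, among them DDX60, OAS3, MX2, UBA7, OAS2 and IFI44L, were chosen after their values were seen. Promoters and motifs were read from RefSeq sequences and tables and plots made in Python 3.11.15 (pandas 2.3.3, matplotlib 3.10.9).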

Additional observations from a re-analysis of the deposited data

Results flagged for a closer look

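The response to ATRA differed between shKDM3B and shNC cells at an unadjusted p under 0.05 for 5 members by the interaction test of edgeR, none of them after adjustment. The difference in log2 response, shKDM3B minus shNC, was 2.64 for SAMD9L, 1.75 for TRIM22, 1.58 for UBE2L6, 1.43 for DDX60 and -1.14 for IFITM1. SAMD9L, TRIM22, UBE2L6 and DDX60 were called lower in shKDM3B without ATRA, and the interaction uses those same libraries. IFITM1 was called lower in shKDM3B_ATRA. No group has more than 2 libraries, so single libraries that stand apart could not be tested for.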

How the results depend on the processing

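The members called higher with ATRA kept within 1.5 times the reported counts under every alternative run, from 25 to 33 in shNC and from 31 to 37 in shKDM3B with a library left out, beside 6.79% to 21.4% and 20.6% to 25.1% of all genes. With a library left out, between 1 and 2 members were called lower in shNC and 2 in shKDM3B in each case, beside 4.11% to 17.0% and 16.7% to 21.1%. Without ATRA, the lower members in shKDM3B ranged from 10 to 13 and the higher ones from 0 to 2 with a library left out, beside 3.15% to 4.82% and 3.21% to 6.73% of all genes. With ATRA, the lower ones ranged from 1 to 11 and the higher ones from 0 to 9, beside 0.624% to 13.3% and 0.265% to 23.2%, and the members with an unequal response from 2 without shNC replicate 1, beside 2.64% of all genes, to 16 without shNC_ATRA replicate 2, beside 19.6%.

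Other settings moved the counts as follows. At an edgeR adjusted p under 0.05 in the reported fit, 0 members were lower and 0 higher in either knockdown comparison, and 0 had an unequal response. Without ATRA, members lower at the adjusted threshold numbered 5 with DESeq2, 6 with the likelihood ratio test and 8 with no low-count filter, beside 122 and 188 of 13855 genes and 257 of 24092. With ATRA, DESeq2 had 1, and SAMD9L had an unequal response at this threshold with DESeq2, the likelihood ratio test and no low-count filter. The count of higher members without ATRA became 2 with no low-count filter and 0 with DESeq2, beside 2.76% and 2.93% of all genes. With ATRA it became 0 with no low-count filter and 0 with the likelihood ratio test, beside 1.92% and 1.72% of all genes. The members with an unequal response became 8 with no low-count filter and 8 with DESeq2, each beside 4.53% of all genes. The replicate numbers share only a number in the labels, and the correlation of same-numbered deviations was -0.0652 for ATRA in shNC, 0.190 for ATRA in shKDM3B, 0.383 without ATRA and 0.0219 with ATRA. With the replicate number as a block, 14 members were lower without ATRA, 11 of them at an adjusted p under 0.05, and 2 were higher. Of all genes, 4.53% were then lower, 2.54% at the adjusted threshold, and 4.43% higher. With ATRA, 0 were higher and 2 lower with the block, beside 1.25% and 2.42% of all genes, and IFIH1, GBP1 and IFITM1 were not called. With the block, 30 and 34 members were higher with ATRA in shNC and shKDM3B, beside 13.3% and 24.2%, and 5 had an unequal response, beside 4.52% of all genes. With the numbers crossed, 0 were higher in either knockdown comparison, beside 2.9% of all genes without ATRA and 1.29% with ATRA. The lower members then numbered 12 without ATRA and 2 with ATRA, beside 2.94% and 2.81%. The cause of these changes was not tested.

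Estimates near 0 changed sign. EIF2AK2 in shNC became -0.02 with library size alone, and JAK1 in shKDM3B became -0.02 with upper-quartile scaling and 0.0 with all 8 libraries in 1 fit. OAS1 with ATRA became 0.0 with DESeq2 or its size factors, 0.03 with library size alone, 0.01 with names listed for all 8 libraries, 0.12 with the replicate block and 0.13 with the crossed block. With a library left out, estimates ranged from -0.1 to 1.89 for IFIT1, -0.25 to 0.05 for USP18, -0.02 to 0.13 for EIF2AK2 and -0.07 to 0.38 for JAK1 with ATRA in shNC. In shKDM3B they ranged from -0.02 to 0.84 for USP18 and from -0.04 to 0.11 for JAK1. In the knockdown comparison with ATRA they ranged from -1.22 to 1.56 for OAS1, -0.03 to 1.92 for IFIT1 and -0.23 to 0.82 for IFIT3. The 2 libraries a group limit the calls, and members under 3 counts per library cannot be compared.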

Other observations

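Replicate 2 was at least 1.5-fold higher than replicate 1 in both ATRA groups for 9 of 49 members: IFIT1, IFIT5, LY6E, OAS1, OAS2, OASL, RSAD2, TRIM22 and XAF1. The same held for 2.75% of 13528 genes, and the pattern was noticed after the values were seen. In shNC_ATRA, 9 of 49 members were at least 2-fold higher in replicate 2 and 0 in replicate 1, against 8.04% and 6.37% of all genes. In shKDM3B_ATRA, 6 members were at least 2-fold higher in replicate 2 and 0 in replicate 1, against 3.33% and 3.41% of all genes. The unassigned reads made up 9.36% and 50.02% in the shNC_ATRA replicates but 51.4% and 51.0% in the shKDM3B_ATRA replicates. The part of this measure was not tested. The time of treatment of each library, 24 or 48 hours, is not given, and its part was not tested.

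Among inhibitors of the pathway, SOCS3 went from 0.452 and 0.336 CPM in shNC to 3.49 and 3.04 in shNC_ATRA and from 0.565 and 0.460 in shKDM3B to 5.58 and 5.43 in shKDM3B_ATRA. IRF2, a repressor that competes for ISRE sites, went from 11.9 and 18.0 CPM in shNC to 40.3 and 42.5 in shNC_ATRA and from 14.2 and 14.6 in shKDM3B to 39.9 and 36.8 in shKDM3B_ATRA. Both were called higher in each cell pool and were named after their values were seen.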
